A study of Mus musculus with 7 samples.

Results

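Collagen fibrils carry the load in tendon, and 10 genes for their chains and for collagens bound to their surface were followed here. They were chosen by gene symbol from the 42689 named mouse genes to which the deposited transcripts mapped: Col1a1, Col1a2, Col3a1, Col5a1, Col5a2, Col5a3, Col12a1, Col14a1, Col16a1 and Col24a1. RNA came from mouse hindlimb tendon, taken between the end of the calf muscle (gastrocnemius) and the heel bone, and was sequenced as 7 bulk libraries in 3 groups. The tenotomy group (n = 2) is the injured left leg 3 weeks after the Achilles tendon was cut in mice that had at the same operation received a partial-thickness burn on the back (metal block at 60 °C for 18 s over 30% of the body surface). The contralateral group (n = 3) is the uncut right leg of such burned mice, also at 3 weeks, so it had the burn, isoflurane anaesthesia and buprenorphine too. The uninjured group (n = 2) is the same tendon of wild-type mice with neither burn nor cut. All mice are of C57BL/6 background; sex, age, any pooling of animals and which legs came from 1 mouse are not given, so p-values measure only the spread between these libraries. The study asked about the kinase TAK1 in injury and in heterotopic ossification (bone forming outside the skeleton), and no label gives a TAK1 genotype for these libraries.

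As background, a fibrillar collagen chain is built around a long stretch in which glycine recurs at a fixed spacing, which lets 3 chains wind into a triple helix. Type I collagen, made of Col1a1 and Col1a2 chains, is the bulk of a tendon fibril; type III, made of Col3a1 chains, is prominent in healing tissue; type V, made of Col5a1, Col5a2 and in some tissues Col5a3 chains, helps to start fibrils and limits their width. Collagens XII, XIV and XVI (Col12a1, Col14a1, Col16a1) have interrupted helices; XII and XIV lie on the fibril surface and take part in how fibrils pack. Col24a1 is a fibrillar collagen known from bone.

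The sequences below show this difference in build. Each is 45 bases from the coding sequence of the gene's transcript with the most counts (GENCODE M21, GRCm38). The bases open its longest unbroken run of 9-base units that begin with a glycine codon, with that first codon in capitals.
Col1a1: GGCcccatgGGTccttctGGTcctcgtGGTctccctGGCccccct
Col3a1: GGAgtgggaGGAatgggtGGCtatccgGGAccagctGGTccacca
Col5a1: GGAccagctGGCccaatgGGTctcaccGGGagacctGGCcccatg
Col12a1: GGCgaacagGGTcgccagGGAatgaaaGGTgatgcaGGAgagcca
Col14a1: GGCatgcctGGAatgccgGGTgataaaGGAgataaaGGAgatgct
The run held 338 units in Col1a1, 339 in Col1a2, 344 in Col3a1, 338 in Col5a1, 339 in Col5a2 and 337 in Col5a3, but 32 in Col12a1, 32 in Col14a1 and 52 in Col16a1. Col24a1 lay between, with 216. Of 22527 coding genes scanned, 9 had a run of at least 300 units: these 6 genes, Col2a1, Col11a1 and Col11a2.

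The genes lie on GRCm38 at chr11:94936224-94953042 (Col1a1), chr6:4504814-4541544 (Col1a2), chr1:45311538-45349706 (Col3a1), chr2:27886425-28039514 (Col5a1), chr1:45374321-45503282 (Col5a2), chr9:20770050-20815067 (Col5a3), chr9:79598991-79718831 (Col12a1), chr15:55307750-55520803 (Col14a1), chr4:130047840-130099283 (Col16a1) and chr3:145292472-145552011 (Col24a1). Col3a1 on the plus strand and Col5a2 on the minus strand are neighbours, 24614 bases apart with 0 coding genes between them. An exon of Col3a1 overlaps the microRNA gene Gm47302, and exons of Col5a1 overlap the minus-strand transcripts 2810430I11Rik and Gm13372. Whether the counting used strand is not given in the sources used here, so reads of these overlaps cannot be told apart.

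The libraries held 25927171 to 36725106 estimated counts, of which 5 features took 76.4% to 81.4%. These were Gm42418, Lars2, Mir6236, a transcript with no gene match and mitochondrial 16S ribosomal RNA (mt-Rnr2). The share of the 5 features was 76.4% to 77.2% in contralateral, 81.3% and 80.8% in tenotomy, and 81.4% and 79.4% in uninjured libraries. Mitochondrial ribosomal RNA took 8.45% to 10.4%, 2.60% and 2.56%, and 2.75% and 7.16% in the same order, so it split the libraries as many collagen genes do, and its part in the results was not tested. Removing the 5 features left 9 of the 10 genes called in the first comparison below. The libraries did not all sort by group. Over all genes tested, uninjured replicate 1 was at a distance of 59.6 and 61.1 (root of the summed squared log2 CPM differences) from the tenotomy libraries and no closer than 124.9 to a contralateral one. Uninjured replicate 2 lay 64.5 to 67.4 from contralateral libraries, and its smallest distance to a tenotomy library was 121.2. The 2 uninjured libraries were 114.0 apart, against 54.5 for the tenotomy pair and 56.7 to 65.2 among the contralateral libraries. The numbers in the library titles form 3 series, which no label explains: contralateral 1 to 3 with tenotomy 1, tenotomy 2 with uninjured 1, and uninjured 2 alone. Whether the labels of the uninjured libraries are right could not be checked, so uninjured here means labelled so, and results on that group are given for each library. Replicate numbers follow deposit order and pair nothing.

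At the tenotomy site 9 of the 10 collagen genes were higher than in the contralateral tendon, by 2.88-fold (Col5a3) to 11.4-fold (Col14a1), and in each of the 9 the tenotomy libraries lay above all contralateral ones. Col24a1 did not pass the test. Over all 16028 features tested, 13.6% were called higher and 15.4% lower (edgeR quasi-likelihood test, Benjamini-Hochberg adjusted p under 0.05), and in 31.9% the tenotomy libraries lay wholly above the contralateral ones. The median log2 fold change of the 10 genes was 2.78, against 0.00 over all features tested. All 10 passed the filter on low counts. Together the 10 genes took 0.395% to 0.560% of the counts outside the 5 leading features in contralateral libraries and 4.09% and 4.16% in tenotomy libraries. In bulk tissue, fewer cells of a type and less RNA per cell cannot be told apart.

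Levels below are in CPM, the usual depth-normalised count, after scaling by the trimmed mean of M values. Col1a1, the main type I chain, was at 478, 466 and 373 CPM in the contralateral libraries, 2566 and 2584 in the tenotomy libraries, and 2357 and 2214 in uninjured replicates 1 and 2. The uninjured pair lay just under the tenotomy pair and far above the contralateral libraries. The log2 fold change of tenotomy over contralateral was 2.55 (SE 0.25, adjusted p = 0.0152). Its partner chain Col1a2 was at 469, 417 and 337 CPM in contralateral, 1852 and 1852 in tenotomy, and 1711 and 1489 in uninjured libraries. Its order of libraries was that of Col1a1, with a log2 fold change of 2.18 (SE 0.25, adjusted p = 0.0167).

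Col3a1, the type III chain, was at 170, 204 and 201 CPM in the contralateral libraries, 2011 and 1999 in the tenotomy libraries, and 1808 and 384 in uninjured replicates 1 and 2. Here the uninjured libraries parted: replicate 1 sat beside the tenotomy libraries and replicate 2 nearer the contralateral ones. Tenotomy exceeded contralateral by a log2 fold change of 3.39 (SE 0.56, adjusted p = 0.0167), a 10.5-fold difference against 5.86-fold for Col1a1.

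**Figure D1:**
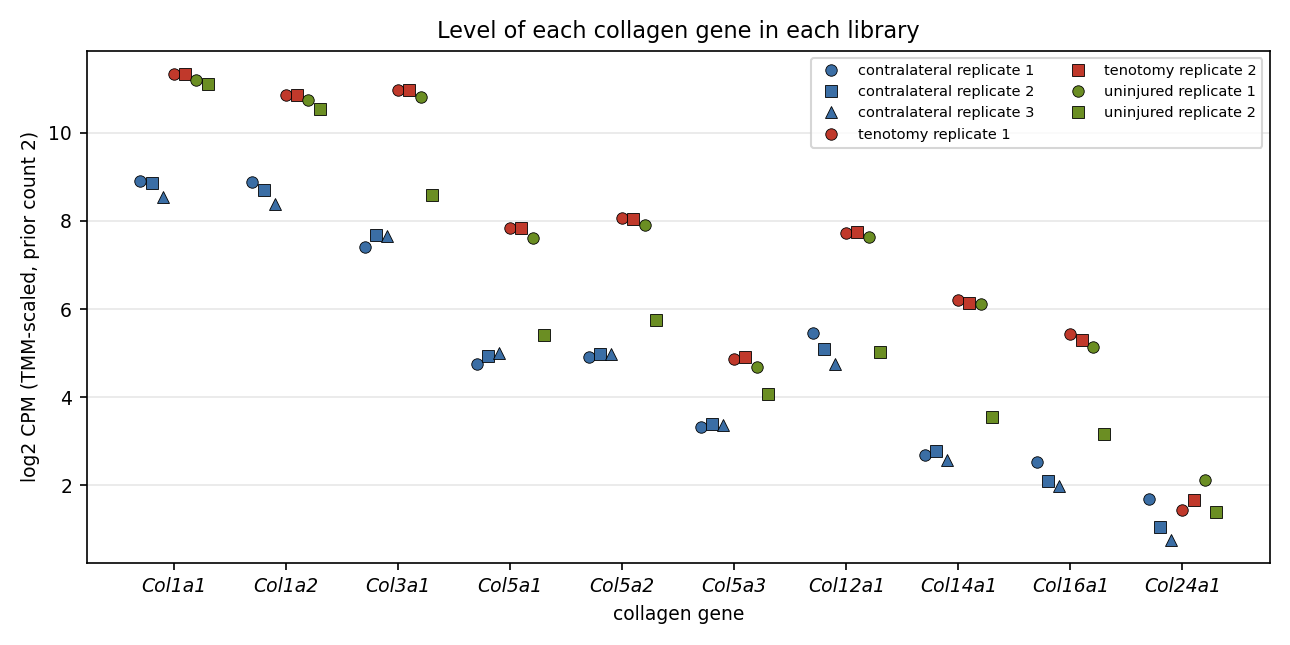
Level of each of the 10 collagen genes in each of the 7 libraries, in log2 CPM (scaled, prior count 2), with 1 point per library coloured by group and shaped by replicate. Tenotomy points lie above all contralateral points for every gene but Col24a1, and uninjured replicate 2 (green square) is near the tenotomy level for Col1a1 and Col1a2 but lower for the others except Col24a1.

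The 3 type V chains differed in size of change. Col5a1 was at 27.1, 30.7 and 31.8 CPM in contralateral, 230.0 and 229 in tenotomy, and 197 and 42.5 in uninjured libraries, a log2 fold change of tenotomy over contralateral of 2.94 (SE 0.53, adjusted p = 0.0167). Col5a2 followed it closely, at 30.2, 31.4 and 31.3 CPM in contralateral, 269 and 264 in tenotomy, and 239 and 53.9 in uninjured libraries (log2 fold change 3.11, SE 0.52, adjusted p = 0.0167). For both genes uninjured replicate 2 was above every contralateral library but far below replicate 1. Col5a3 was lower and moved less, at 10.01, 10.44 and 10.33 CPM in contralateral, 29.0 and 30.0 in tenotomy, and 25.6 and 16.7 in uninjured libraries. Its log2 fold change was 1.52 (SE 0.20, adjusted p = 0.0167), and uninjured replicate 2 lay between the groups.

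Among the fibril-associated genes, Col12a1 was at 43.7, 34.2 and 27.1 CPM in contralateral, 212 and 214 in tenotomy, and 199 and 32.6 in uninjured libraries. Uninjured replicate 2 fell inside the contralateral range. Its log2 fold change of tenotomy over contralateral was 2.61 (SE 0.63, adjusted p = 0.0219), and it is the gene with the largest SE of the 10. Col14a1 had the largest change of the 10, from 6.37, 6.77 and 5.84 CPM in contralateral to 73.9 and 70.9 in tenotomy libraries, with 69.2 and 11.7 in uninjured ones (log2 fold change 3.51, SE 0.61, adjusted p = 0.0167). Col16a1 was at 5.70, 4.21 and 3.90 CPM in contralateral, 43.4 and 39.5 in tenotomy, and 35.1 and 8.91 in uninjured libraries (log2 fold change 3.17, SE 0.50, adjusted p = 0.0167). For Col14a1 and Col16a1 uninjured replicate 2 was above the contralateral range but nearer to it than to the other libraries.

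Col24a1 was the rarest, with 53 to 120 counts per library. It was at 3.15, 2.02 and 1.64 CPM in contralateral, 2.64 and 3.10 in tenotomy, and 4.31 and 2.58 in uninjured libraries, and the contralateral range held every other library except uninjured replicate 1, the highest. The log2 difference of tenotomy from contralateral was 0.35 (SE 0.32, adjusted p = 0.443), and it took the opposite sign, -0.11, with counts derived from length-scaled TPM.

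The call depended on the libraries fitted. In the fit that shares its spread with the uninjured libraries, leaving out any 1 of the 5 tenotomy or contralateral libraries left 0 of the 10 genes past the threshold (adjusted p 0.0501 to 0.126 for the 9 genes, log2 fold changes 1.49 to 3.56), and 0 genes in all. When only the 5 libraries compared were fitted, 9 of 10 were called higher (background 22.1%), and 9 or 10 with each of the 5 left out in turn.

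Set against the mean of the contralateral libraries, each remaining library gives its own profile. Tenotomy replicate 1, which shares a title series with the contralateral libraries, was above their mean log2 CPM by 2.55 for Col1a1, 3.40 for Col3a1, 2.95 for Col5a1, 2.63 for Col12a1 and 3.53 for Col14a1. Uninjured replicate 1 gave 2.43, 3.24, 2.72, 2.53 and 3.44 for the same genes. Uninjured replicate 2 gave 2.34 for Col1a1 and 1.88 for Col1a2, but 1.01 for Col3a1, 0.51 for Col5a1, 0.80 for Col5a2, 0.70 for Col5a3, -0.08 for Col12a1, 0.89 for Col14a1 and 0.96 for Col16a1. So this library had type I RNA near the tenotomy level, and the other 7 of the 9 genes called at the tenotomy site below it. Col24a1, which was not called, was at 0.23.

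**Figure D2:**
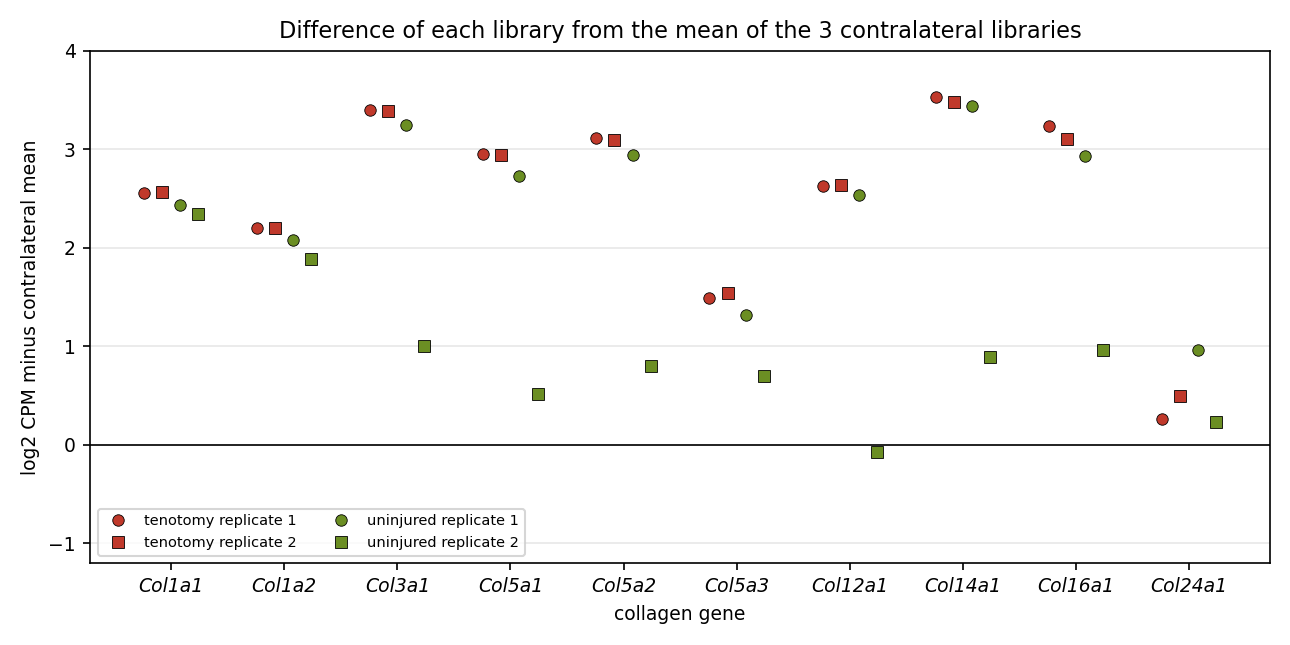
Log2 CPM of each tenotomy and uninjured library minus the mean of the 3 contralateral libraries (vertical axis) for each collagen gene (horizontal axis), with 1 point per library. In uninjured replicate 2, Col1a1 is 2.34 above the contralateral mean and Col12a1 is at -0.08, while the other 3 libraries are at 2.43 or more for both.

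The comparison of tenotomy with uninjured tendon called 0 of the 10 genes, against 0% called higher over all features tested. Log2 differences ran from 0.17 (Col1a1) to 0.94 (Col5a1) in 9 genes and were -0.27 in Col24a1, with adjusted p from 0.474 to 0.814. None reached an unadjusted p of 0.05, beside 524 features higher and 1217 lower of 16028, and DESeq2 and limma-voom called 0 as well. The tenotomy libraries lay above both uninjured ones in the same 9 genes, against a background of 20.1%. That order hides a wide gap: tenotomy 2 exceeded uninjured 1, with which it shares a title series, by 0.13 in Col1a1, 0.14 in Col3a1 and 0.03 in Col14a1 on the log2 scale, while uninjured 2 was below uninjured 1 by -2.24 in Col3a1, -2.61 in Col12a1 and -2.55 in Col14a1.

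Without uninjured replicate 1, 7 of the 10 genes were called higher in tenotomy than in uninjured tendon, against 11.4% of features. These were Col3a1 (2.39), Col5a1 (2.44), Col5a2 (2.31), Col5a3 (0.83), Col12a1 (2.71), Col14a1 (2.63) and Col16a1 (2.22), given as log2 fold changes, with adjusted p from 4.01e-07 (Col14a1) to 0.000488 (Col5a3). Col1a1 differed by 0.22 (adjusted p = 0.415) and Col1a2 by 0.32 (adjusted p = 0.263). Without uninjured replicate 2, 0 of the 10 were called, against 0.0593% of features, and the log2 differences of Col1a1 and Col3a1 were 0.13 and 0.15. In either fit the single uninjured library is assumed to vary like the other groups.

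Contralateral tendon, the uncut leg of burned mice, had lower mean levels than uninjured tendon in all 10 genes, with 0 called by edgeR (0% of features called lower; adjusted p 0.128 to 0.311). At an unadjusted p under 0.05, 9 of the 10 were lower, beside 1687 of 16028 features. The contralateral libraries lay wholly below the uninjured ones in 8 of the 10 genes, all but Col12a1 and Col24a1, against 16.6% of features. The log2 difference was -2.38 in Col1a1 (SE 0.25, adjusted p = 0.128) and -1.97 in Col1a2 (SE 0.25, adjusted p = 0.150), and -2.52 in Col3a1 (SE 0.55, adjusted p = 0.215). This comparison shares its contralateral libraries with the first one and its uninjured libraries with the second.

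Calls in this comparison moved with the test. DESeq2 called 8 of 10 lower, against 0.886% of features, limma-voom called 0, and edgeR with no filter on low counts called 8, against 0.835%. Without uninjured replicate 1, 7 of 10 were called lower in contralateral tendon, against 0.311% of features. Among these, Col1a1 fell by 2.33 (adjusted p = 8.88e-05) and Col1a2 fell by 1.87 (adjusted p = 0.000585), while Col3a1 fell by 1.003 (adjusted p = 0.0125) and Col16a1 fell by 0.97 (adjusted p = 0.0449), all on the log2 scale. Col5a1 differed by -0.51 (adjusted p = 0.148) and Col12a1 by 0.10 (adjusted p = 0.906), the opposite sign to the value with both libraries. Without uninjured replicate 2, all 10 were called lower, against 15.0% of features, from -3.45 in Col14a1 to -0.95 in Col24a1. The 2 genes of type I collagen were thus lower in contralateral tendon than in either uninjured library taken alone. So were Col3a1, Col5a1, Col5a2, Col5a3, Col14a1 and Col16a1. The 2 fits share the contralateral libraries, and each assumes that its single uninjured library varies like the other groups.

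Proportions between chains were compared as ratios of TPM, the deposited abundance that is corrected for transcript length. They are a description with no test, since an exact permutation of 2 libraries against 3 has only 10 splits and cannot pass 0.05. Col3a1 stood at 40.1%, 48.8% and 58.5% of Col1a1 in contralateral, 83.7% and 82.5% in tenotomy, and 81.9% and 19.1% in uninjured libraries. Tenotomy and uninjured replicate 1 shared the high ratio, and uninjured replicate 2 had the lowest of the 7. Col14a1 was at 1.57%, 1.65% and 1.79% of Col1a1 in contralateral, 3.05% and 2.99% in tenotomy, and 3.11% and 0.662% in uninjured libraries, the same order of groups. Col5a1 was at 3.70%, 4.69% and 5.70% of Col1a1 in contralateral, 6.12% and 6.05% in tenotomy, and 5.65% and 1.31% in uninjured libraries. Col12a1 was at 5.27%, 4.63% and 3.69% of Col1a1 in contralateral, 5.55% and 5.48% in tenotomy, and 5.59% and 0.969% in uninjured libraries. For Col5a1 and Col12a1 the tenotomy libraries were only slightly above the contralateral range, so it is again uninjured replicate 2 that stands apart.

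**Figure D3:**
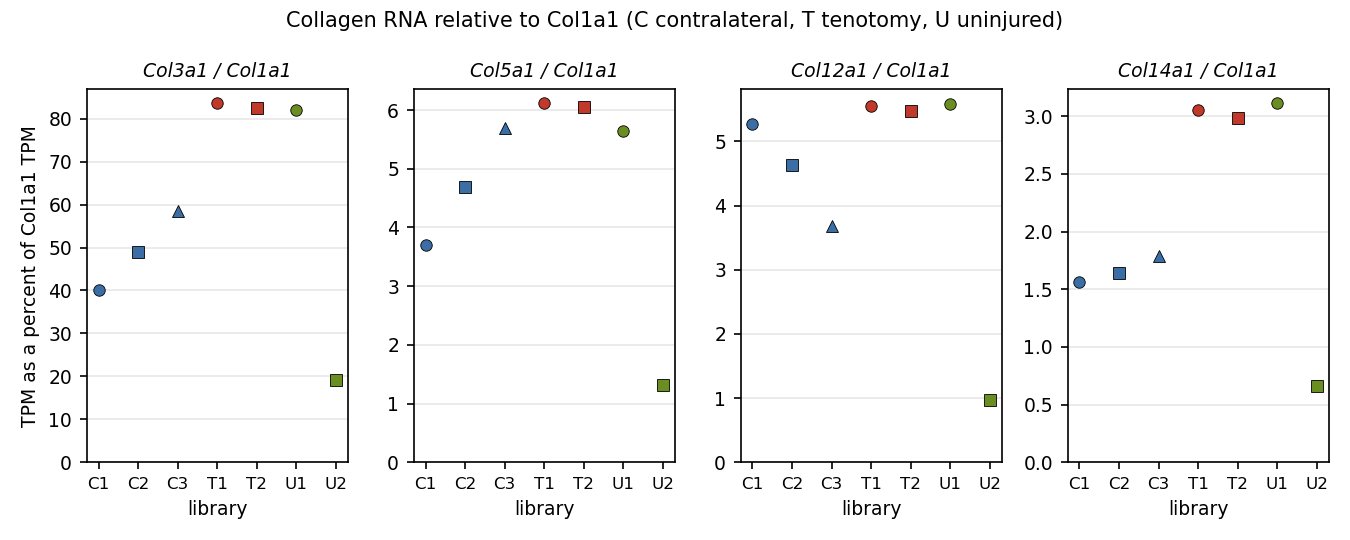
TPM of Col3a1, Col5a1, Col12a1 and Col14a1 as a percent of Col1a1 TPM in each library (C contralateral, T tenotomy, U uninjured; 1 point per library, axes from 0). Uninjured replicate 2 has the lowest ratio in all 4 panels, and Col3a1 reaches 83.7% and 82.5% in the tenotomy libraries against at most 58.5% in the contralateral ones.

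In the ratios between partners within a trimer, uninjured replicate 2 had the highest value, not the lowest. Type I collagen joins a pair of Col1a1 chains to a single Col1a2 chain, while their RNAs stood at a Col1a1 to Col1a2 ratio of 93.2%, 98.6% and 102% in contralateral, 125% and 126% in tenotomy, and 124% and 133% in uninjured libraries. In that ratio the contralateral libraries lay wholly below both other groups. Col5a2 stood at 205%, 169% and 155% of Col5a1 in contralateral, 172% and 164% in tenotomy, and 184% and 213% in uninjured libraries. By TPM both other groups overlapped the contralateral range, but not by counts per transcript length, given at the end. As shares of the summed TPM of the 10 genes, Col1a1 held 34.1% to 37.1% in 6 libraries and 49.5% in uninjured replicate 2. Col3a1 held 14.9% to 20.7% in contralateral, 28.5% and 28.4% in tenotomy, and 28.2% and 9.46% in uninjured libraries. Col24a1 held at most 0.428%.

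Most counts of a gene fell on 1 transcript: at least 99.8% in Col1a1, 97.6% in Col1a2, 98.4% in Col3a1 and 99.5% in Col5a1. Col12a1 and Col14a1 were split further. The 6447-base transcript of Col14a1 took 84.8%, 68.2% and 86.3% of its counts in contralateral, 69.9% and 76.6% in tenotomy, and 55.0% and 83.9% in uninjured libraries, with the groups overlapping. For Col12a1, the 11511-base transcript took 71.6%, 73.8% and 86.6% of its counts in contralateral, 56.9% and 58.6% in tenotomy, and 58.5% and 63.1% in uninjured libraries. The 9953-base coding transcript took 24.3%, 20.9% and 11.3% in contralateral, 36.9% and 35.5% in tenotomy, and 35.7% and 29.6% in uninjured libraries. The contralateral libraries lay wholly apart from the other 4 in both Col12a1 shares, which were not tested and are estimates that split shared reads. Col16a1 was spread over 13 transcripts, with 28.0% to 46.2% on its main one.

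Promoters were read from RefSeq (GRCm38.p6), whose table holds 6 of the 10 genes: Col1a2, Col3a1, Col5a1, Col5a3, Col16a1 and Col24a1. Col3a1 and Col16a1 are shown as genes of like pattern across the 7 libraries, of which Col3a1 alone holds TATAAA and Col16a1 alone CCAAT; each line is the 120 bases before the start, on the plus strand, with a TATAAA (Col3a1, chr1:45311418-45311537) or CCAAT (Col16a1, chr4:130047720-130047839) in capitals.
Col3a1: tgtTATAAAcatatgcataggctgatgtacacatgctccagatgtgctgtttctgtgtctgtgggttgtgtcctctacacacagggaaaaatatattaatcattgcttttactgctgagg
Col16a1: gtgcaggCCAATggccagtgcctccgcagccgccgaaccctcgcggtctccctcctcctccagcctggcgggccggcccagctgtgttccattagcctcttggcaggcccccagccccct
In the 250 bases before the start, on both strands, TATAAA was in 1 of the 6 promoters (12.4% of 32851 promoters), CCAAT in 3 (33.8%; Col1a2, Col5a3, Col16a1), the GC box GGGCGG in 4 (32.7%), the E-box CANNTG in 4 (66.2%) and CAGACA in 3 (17.1%). A match describes the letters only.

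Likeness of pattern was measured as the root mean square difference of log2 CPM over the 7 libraries, with each gene centred on its mean. Col1a1 and Col1a2 differed by 0.20, Col5a1 and Col5a2 by 0.12, and Col3a1 and Col14a1 by 0.14, but Col1a1 and Col3a1 by 0.74. The smallest difference between a type I gene and any other of the 10 was 0.46 (Col1a2 and Col5a3), while Col3a1, Col5a1, Col5a2, Col14a1 and Col16a1 differed from one another by at most 0.305. Among 2011 other genes of sufficient level, those nearest Col1a1 were the long noncoding RNAs Meg3 (0.34) and Rian (0.39), Sparc (0.41), which encodes a collagen-binding matrix protein, Col11a2 (0.44) and Lox (0.51), a collagen-crosslinking oxidase. Those nearest Col14a1 were Col11a1 (0.16), Col8a1 (0.22), the matrix glycoprotein gene Tnc (0.24) and the metalloproteinase genes Mmp14 (0.25) and Mmp2 (0.29). The libraries share their depth and scaling in each of these values.

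The rest of the collagen pathway was taken from lists chosen with earlier results known, and its counts refer to tenotomy against contralateral at the same threshold, to be read against 13.6% of features called higher and 15.4% lower. All 4 other fibrillar collagen genes were called higher: Col2a1, the cartilage collagen, by a log2 fold change of 7.98, Col11a1 by 3.55, Col27a1 by 2.51 and Col11a2 by 2.33. Of 7 other fibril-associated genes 5 were tested, with Col9a2 (5.89), Col9a3 (5.88) and Col9a1 (4.86), all chains of the cartilage collagen IX, higher and Col22a1, a collagen of the muscle-tendon junction, lower (-2.33). Contralateral counts were 1 to 2 for Col9a2, 1 to 6 for Col9a3, 5 to 11 for Col9a1 and 11 to 23 for Col2a1. These folds are thus poorly known, with an SE of 0.94 for Col2a1 and 0.83 for Col9a3, against 0.51 for Col9a2 and 0.41 for Col9a1. Of 22 further collagen genes tested (24 listed), 12 were higher, led by Col8a1 (3.27), Col6a3 (2.67) and Col6a2 (2.53), and Col13a1 was lower (-2.04); the list's median was 0.82.

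Genes that make and export procollagen were called higher in 15 of 21 cases and lower in 0, with a median of 1.53. They included the prolyl hydroxylase subunit P4ha3 (3.38), the lysyl hydroxylase Plod2 (2.68) and the folding factor Fkbp10 (2.25). Of 7 tested genes for propeptide removal (8 listed), 4 were higher and 0 lower, among them the proteinases Bmp1 (1.87) and Adamts2 (1.65) and the enhancer protein Pcolce (1.56). Of 13 fibril organizers 8 were higher and 0 lower: periostin (Postn, 5.36), lumican (Lum, 3.85) and fibronectin (Fn1, 3.52) led. Among the other small proteoglycans of this list, biglycan (Bgn, 2.66) and keratocan (Kera, 1.30) were called higher. Decorin (Dcn, 0.32) and fibromodulin (Fmod, 0.09), abundant in mature tendon, did not pass the test, nor did Prelp (0.03). Dcn was at 194, 159 and 115 CPM in contralateral, 194 and 195 in tenotomy, and 191 and 177 in uninjured libraries.

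Of 6 crosslinking genes 4 were higher, with Loxl1 (2.11), Loxl2 (1.86) and Lox (1.80) foremost, and the transglutaminase gene Tgm2 was lower (-1.004). All 7 tested genes for collagen turnover (9 listed) were higher, including the membrane metalloproteinase Mmp14 (3.97) and the cathepsin Ctsk (2.99). The collagenase gene Mmp13 had 0, 1 and 3 counts in contralateral, 1111 and 933 in tenotomy, and 641 and 2 in uninjured libraries, so it parted the uninjured libraries as Col3a1 did. Of 8 tested receptor genes (9 listed) 3 were higher and 0 lower: the integrin chain Itga11 (2.54), the leukocyte receptor Lair1 (2.00) and the receptor kinase Ddr2 (0.52). Of 14 upstream regulators 4 were higher, among them the immediate-early factor Egr1 (1.92), the tendon transcription factor Scx (1.43) and the growth factor Tgfb1 (1.14), and the transcription factor Cebpb was lower (-0.80).

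**Figure D4:**
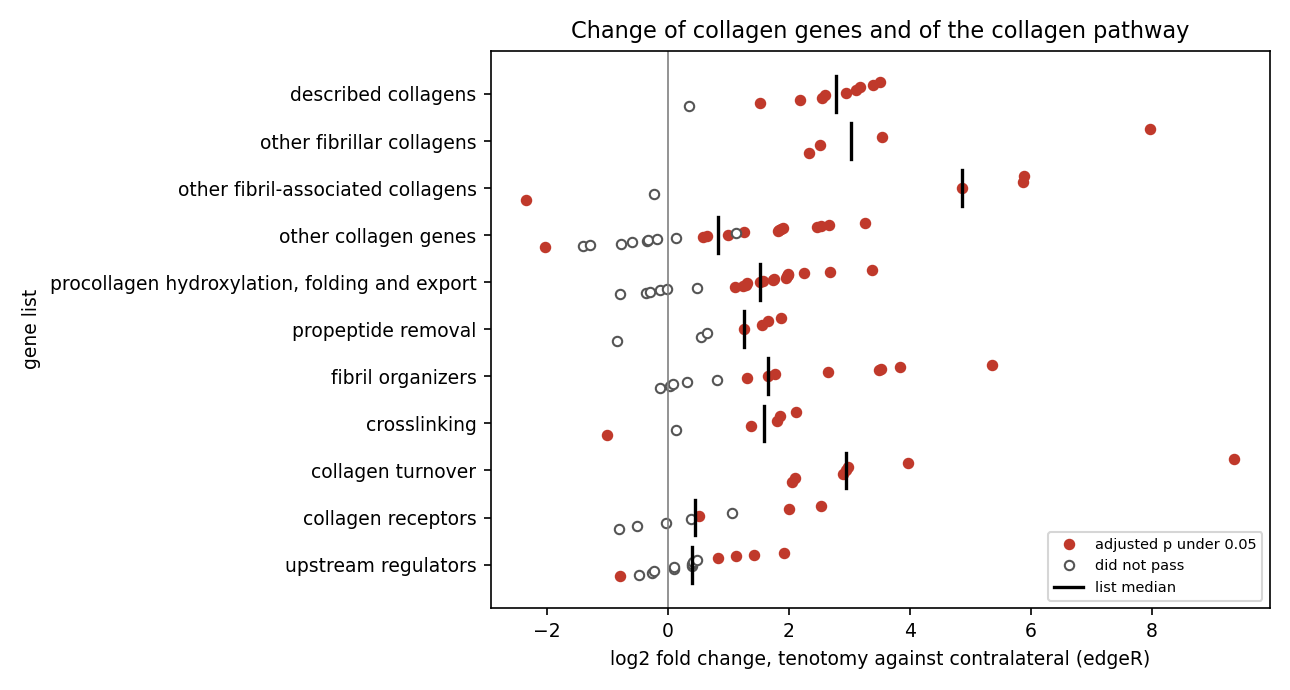
Log2 fold change of tenotomy over contralateral (horizontal axis, edgeR) for each tested gene of the collagen pathway lists (vertical axis), with filled points for adjusted p under 0.05, open points for the rest and a bar at each list's median. The 10 collagen genes have a median of 2.78, against 1.53 for the procollagen processing list and 0.40 for the upstream regulators.

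Markers of other tissues also differed between libraries, some in the direction of the collagen genes and some in the opposite one. Their part in the results was not tested. The 12 skeletal muscle markers summed to 8372 to 10779 CPM in contralateral, 833 and 841 in tenotomy, and 1049 and 7746 in uninjured replicates 1 and 2; all 12 were called lower at the tenotomy site. Muscle RNA was thus high in the contralateral libraries and in uninjured replicate 2. In uninjured replicate 2, Col1a1 and Col1a2 were near the tenotomy level, while Col12a1 fell inside the contralateral range. The 7 cartilage markers, Col2a1 and Col9a1 among them, summed to 3.56 to 4.89 CPM in contralateral, 245 and 249 in tenotomy, and 75.1 and 5.78 in uninjured libraries. The 8 macrophage and leukocyte markers summed to 22.3 to 30.0, 109 and 112, and 113 and 29.4 CPM in the same order, and all 8 were called higher. In these lists uninjured replicate 2 lay near the contralateral libraries. Uninjured replicate 1 lay beside the tenotomy libraries in the muscle and leukocyte lists, as in Col3a1. In the cartilage list it was well below them, at 75.1 against 245 and 249 CPM.

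Markers of the tissue named in the labels were present throughout. The 7 tendon markers summed to 172 to 292 CPM in contralateral, 367 and 370 in tenotomy, and 343 and 261 in uninjured libraries, with Scx at only 15 to 52 counts per library; 3 of the 7 were called higher. The 7 fibroblast markers summed to 161 to 245, 418 and 421, and 386 and 235 CPM, with 6 called higher. Gene by gene, the median log2 fold change was 1.08 in the tendon list (highest 1.89) and 1.66 in the fibroblast list (highest 3.85), beside 2.78 in the 10 collagen genes (highest 3.51). The 5 myofibroblast and mural markers were all called lower (178 to 204, then 75.2 and 75.6, then 86.8 and 143 CPM). The 7 bone markers summed to 15.3 to 21.4 CPM in contralateral, 48.9 and 48.5 in tenotomy, and 43.0 and 8.603 in uninjured libraries. Among them, the osteoblast genes Bglap, Bglap2 and Sp7 never exceeded 4 counts in a library and, like Dmp1, did not pass the filter. The bone matrix gene Ibsp had 224, 203 and 130 counts in contralateral, 3 and 3 in tenotomy, and 17 and 69 in uninjured libraries, and was called lower at the tenotomy site, as was the phosphatase gene Alpl (log2 fold change -1.73). Spp1, which macrophages also express, differed by 2.11 with an adjusted p of 0.0525 in the edgeR test. It gave nearly all of the bone sum at the tenotomy site, with 47.9 and 47.8 CPM there. In contralateral libraries Spp1 was at 9.63, 13.9 and 9.56 CPM, and in uninjured ones at 41.5 and 5.02. Proliferation markers summed to 3.19 to 3.41 CPM in contralateral, 12.8 and 14.4 in tenotomy, and 11.6 and 2.72 in uninjured libraries, with 4 of 5 called higher. The 5 adipose markers summed to 154 to 210 CPM in contralateral, 78.5 and 78.5 in tenotomy, and 77.7 and 212 in uninjured libraries, with 2 called lower. The 5 erythroid markers summed to 44.3 to 50.1, 69.7 and 65.2, and 63.8 and 64.7 CPM, with 2 called higher. The 5 endothelial markers summed to 50.0 to 60.5, 55.4 and 43.7, and 59.9 and 57.2 CPM, with 1 called lower. The 4 Schwann cell markers summed to 91.5 to 104, 64.2 and 66.6, and 45.8 and 149 CPM, with 2 called higher although the sum was lower. Removing the 12 muscle markers, the 5 erythroid markers and the mitochondrial genes before scaling left 9 of the 10 collagen genes called higher. This step changes only the scaling, so the part of tissue mix was not tested.

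**Figure D5:**
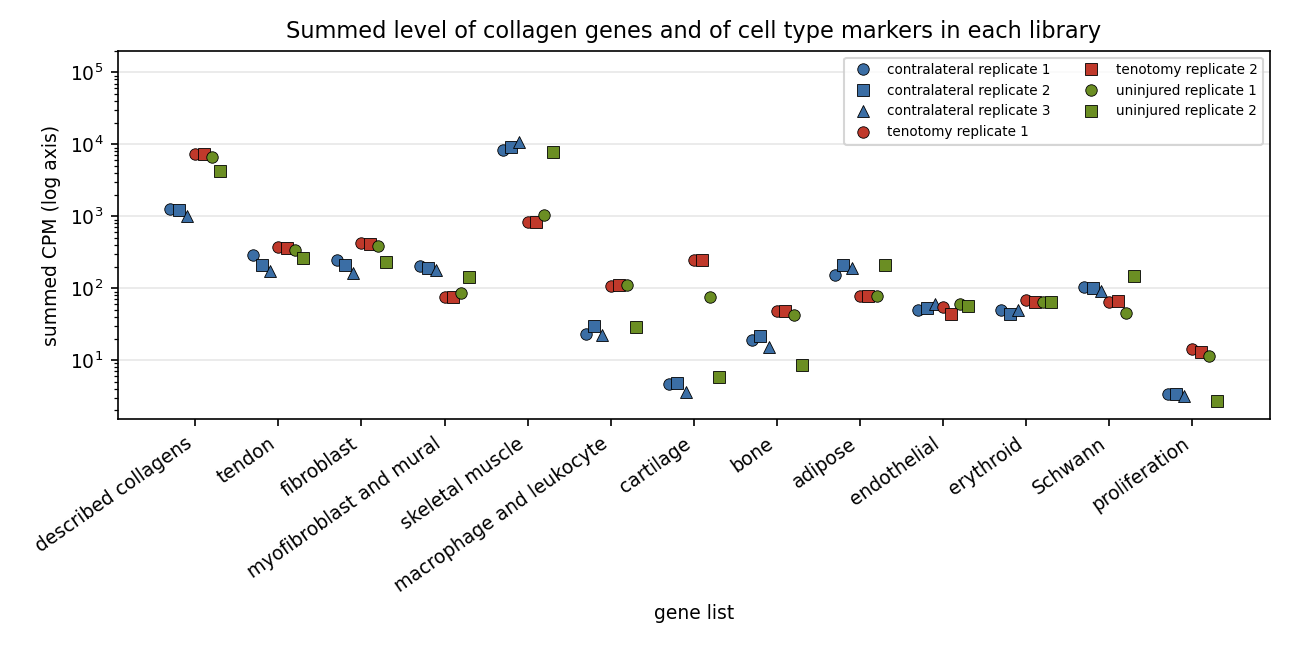
Summed CPM (log axis) of the 10 collagen genes and of each cell type marker list in each library, coloured by group and shaped by replicate. Skeletal muscle markers sum to 8372 CPM or more in the contralateral libraries and 7746 in uninjured replicate 2, against 833 to 1049 in the other 3 libraries.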

How the data were processed

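Per the submitters' processing notes, reads were checked with FastQC 0.11.4 and quantified with kallisto (version not given in the sources used here); the notes list build GRCh38, although the transcript identifiers are mouse. Per the file headers, each deposited file holds length, effective length, estimated counts and TPM per transcript. Of 103639 transcripts 101510 matched GENCODE M21 by identifier, 57625 with the same version; the 2129 others were kept as features of their own (44818 features in all). The authors' estimated counts were summed per gene and rounded, and the authors' TPM summed per gene.

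All 7 libraries were fitted together with 3 group means by edgeR 4.0.16 (quasi-likelihood test, TMM scaling, filterByExpr with a minimum count of 10), with Benjamini-Hochberg adjustment over 16028 features and a threshold of 0.05. SE is the absolute log2 fold change divided by the root of F; log2 CPM used a prior count of 2. The script was tested on simulated data. DESeq2 1.42.0 and limma 3.58.1 served as alternatives, with other scalings, filters, libraries left out and the title series as a covariate.

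The collagen genes, gene lists and marker lists were chosen with earlier results of these data known. Genes named outside the 10 are up to 3 called rises and falls of largest size per list and the 5 genes nearest in pattern to Col1a1 and Col14a1. Col11a2, Dcn, Fmod, Bgn, Kera, Prelp and the count values of Mmp13 were added after values were seen. No 2 libraries agreed within sampling noise (lowest chi-square per degree of freedom 4.02, tenotomy 2 and uninjured 1). Estimated counts carry an added assignment error, so depth sets a lower limit on the error.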

Additional observations from a re-analysis of the deposited data

How the results depend on the processing

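Tenotomy against contralateral kept 9 of the 10 genes under other scalings, DESeq2, limma-voom, no filter, a minimum count of 30 and length-scaled TPM. It also kept 9 on removal of the leading features, or of the muscle and erythroid markers with the mitochondrial genes. Against a 1.5-fold change it kept 8 (edgeR, Col12a1 adjusted p = 0.0501). With the title series as covariate, this comparison rests on tenotomy 1 alone, because the series of tenotomy 2 holds no contralateral library. No count is given for that fit. Leaving out single libraries gave 0 to 9 in the 7-library fit. The fit of only the groups compared gave 9, and leaving out single libraries within it, a step chosen after seeing the data, gave 9 to 10. Tenotomy against uninjured gave 0 to 7 (7 without uninjured replicate 1), and 0 under the other alternatives. Contralateral against uninjured gave 8 with DESeq2, 8 with no filter and as few as 0 with single libraries left out. The fits without an uninjured library are described above. No title series holds both contralateral and uninjured libraries. With the series as covariate, this comparison is therefore bridged through tenotomy 1 and tenotomy 2 and rests on uninjured 1. No count is given for it. Over all genes, tenotomy against contralateral called 4643 in the full fit, 1565 against a 1.5-fold change, 7385 with only the groups compared and 0 to 7336 with single libraries left out of the 7-library fit (5245 to 7618 within the fit of only the groups compared). Tenotomy against uninjured called 0, but 145 with DESeq2, 15 with no filter, 4 with the covariate and 4275 without uninjured 1. Contralateral against uninjured called 0, but 223 with DESeq2 and 337 with no filter. Upper-quartile scaling moved the median of all features by 0.11 in tenotomy against contralateral.

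Signs turned in 3 cases, none past the threshold: Col24a1 at -0.11 for tenotomy over contralateral with length-scaled TPM, Col24a1 at 0.15 for tenotomy over uninjured without uninjured 1 (-0.59 to 0.15 over single libraries left out), and Col12a1 at 0.10 for contralateral over uninjured without uninjured 1 (-2.51 to 0.10). With counts divided by the longest coding transcript in place of TPM, Col5a1 was at 6.29% of Col1a1 in tenotomy. Col5a2 was then at 132% of Col5a1 in contralateral, 147% in tenotomy and 158% in uninjured tendon. Col12a1 was at 4.27% of Col1a1 in tenotomy, and Col14a1 at 1.33% in contralateral and 2.58% in tenotomy. By this measure the tenotomy libraries lay inside the contralateral range for Col12a1 to Col1a1. For Col5a2 to Col5a1, neither other group overlapped the contralateral range any longer. The cause of these shifts was not tested. No paired analysis was possible because the labels carry no replicate numbers and do not say which legs came from the same mouse. At 53 to 120 counts per library, Col24a1 is where depth limits most.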
